A study of Mus musculus with 4 samples.

Results

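*Zfp36* and *Zfp36l1*, 2 genes of the Zfp36 family of mRNA decay factors, were examined among the 2179 genes of the deposited comparison of ILC3s from α-DR3-treated and PBS-treated mice. They were taken by symbol, and both were present. The other members on the family list, *Zfp36l2* and *Zfp36l3*, were not analysed here. ILC3s were sorted as lineage-negative GFP+ cells from large intestinal lamina propria lymphocytes of littermate Rag1-/- mice with a GFP reporter on day 3, after PBS or 1 µg of α-DR3 (4C12), an agonistic antibody against the TNF receptor family member DR3. All mice of both groups lacked *Rag1*, and thus mature T and B cells, and carried the GFP reporter that marks ILC3s among lineage-negative cells. Each group had 2 libraries, each from the pooled ILC3s of several mice, and the study used young adult C57BL/6 mice of both sexes unless noted. RNA was measured by poly(A) RNA sequencing, and the levels below are the authors' group means of FPKM, a fragment count corrected for transcript length and for library size.

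Values of single libraries, which the study gives outside the deposited table, and counts and depths are not used here, so the means carry no SD and no test of a difference was made. The spread between replicates was thus not set against any difference given here. The table holds genes that the authors had already selected as changed, with a mean over 1 FPKM in either group, so that a direction is known for every gene in it and being present in it is not a separate result.

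ZFP36 proteins bind AU-rich elements in the 3′ untranslated region (UTR) of mRNAs through a pair of CCCH zinc fingers, and recruit deadenylases that shorten the poly(A) tail and start decay. *Zfp36* encodes tristetraprolin, best known for limiting TNF output, and *Zfp36l1* encodes a close relative with the same binding preference. Cytokine mRNAs are their classical targets in immune cells. *Zfp36* is also an immediate early gene, its own mRNA is AU-rich, and the activity of the protein is held back when the p38 and MK2 kinases phosphorylate it.

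The preferred site of these proteins is the heptamer TATTTAT (written with T as in the annotated transcript), which contains the pentamer ATTTA. Both were searched on the transcript strand of the 3′ UTR of 1 protein-coding transcript of each gene in GENCODE M21. The windows below show 1 heptamer, in capitals, with its 9 flanking bases on each side, from both members and from 5 cytokine mRNAs that the results turn on. For each gene the window with the most pentamers was taken. All coordinates are on GRCm38.

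Zfp36, chr7:28376968-28376992, minus strand: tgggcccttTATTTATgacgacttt
Zfp36l1, chr12:80108424-80108448, minus strand: atcaaaacgTATTTATtgccaaact
Tnf, chr17:35199684-35199708, minus strand: attatttatTATTTATttattattt
Il2, chr3:37121053-37121077, minus strand: aaggctctcTATTTATttaaatatt
Il22, chr10:118209925-118209949, plus strand: atatggattTATTTATagaaacatt
Cxcl2, chr5:90905334-90905358, plus strand: ttatctatgTATTTATttatttatt
Il1b, chr2:129364806-129364830, minus strand: ttacctattTATTTATgtatttatt

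In *Tnf*, *Cxcl2* and *Il1b* the window held 3 pentamers, in *Il2* and *Il22* it held 2, and in *Zfp36* and *Zfp36l1* it held 1. The heptamers of both members thus stood apart from further pentamers by this measure, while those of *Tnf* and *Cxcl2* lay in runs. This was not particular to the members. The windows of *Ccl3*, *Il6*, *Il1a* and *Il17f*, taken in the same way but not shown, also held 1 pentamer.

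*Zfp36* mRNA was less abundant after α-DR3. Its mean was 2390 FPKM in the PBS group and 1141 FPKM in the α-DR3 group, which is 2.10 times lower, a log2 ratio of -1.07. In the PBS group only *Il22* and *Junb* had a higher mean among the genes of the table, so *Zfp36* ranked 3 of 2179 by level. In the α-DR3 group it ranked 16. By ratio, *Zfp36* was among the lowest 9.64% of the table. The gene (ENSMUSG00000044786.5) lies on chromosome 7 of GRCm38, 28376784 to 28380253 on the minus strand, and its annotated transcript of 2790 bases has 2 exons and a 3′ UTR of 774 bases.

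*Zfp36l1* mRNA was lower too, by a smaller ratio. Its mean was 940.4 FPKM in the PBS group and 594.5 FPKM in the α-DR3 group, 1.58 times lower and a log2 ratio of -0.66. It ranked 11 by level in the PBS group and 32 in the α-DR3 group, and 31.9% of the genes of the table had a ratio as low or lower. The gene (ENSMUSG00000021127.6) lies on chromosome 12, 80107754 to 80113013 on the minus strand, and its annotated transcript of 2990 bases has 2 exons and a 3′ UTR of 1835 bases. Both members were thus more than 1.5-fold lower, which 38.4% of the genes of the table were, while 37.1% were at least 1.5-fold higher. After division of the means by the median ratio of the table, these shares were 45.3% and 21.1%.

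The mRNA of both members summed to 3331 FPKM in the PBS group and 1735 FPKM in the α-DR3 group, 47.9% lower. *Zfp36* made up the larger part of it in both groups, with 2.54 times the level of *Zfp36l1* in PBS and 1.92 times in α-DR3. A level compared between genes rests on the transcript lengths used for FPKM, and the table gives lengths of 1792 bases for *Zfp36* and 4918 bases for *Zfp36l1*, which differ from the annotated transcripts above. The ratio between groups within a gene does not use the length. In bulk RNA, fewer cells that express a gene and less of its RNA per cell cannot be told apart.

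**Figure D1:**
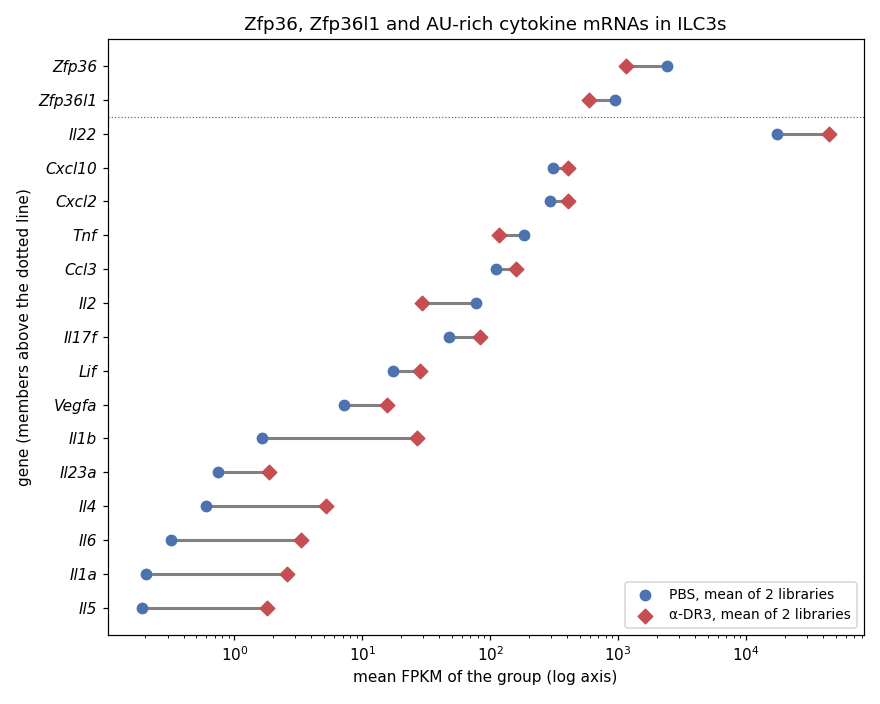
Group mean FPKM (log axis) of *Zfp36*, *Zfp36l1* and the 15 AU-rich cytokine mRNAs of the table, with circles for PBS and diamonds for α-DR3, each the authors' mean over 2 libraries, drawn without error bars. Both members shift to the left with α-DR3, as do *Tnf* and *Il2*, and the other 13 cytokine mRNAs shift to the right. Of all genes of the table, 54.6% were higher.

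Among the abundant genes of the table, the members were near a few genes with a similar pair of levels. Of the 9 other genes with a PBS mean of at least that of *Zfp36l1*, 4 were lower in α-DR3 and 5 higher. By distance on log2(FPKM + 1) in both groups, the nearest genes to *Zfp36* were 2310016C08Rik (2068 FPKM in PBS and 1228 in α-DR3, distance 0.23), *Gadd45b* (1299 and 764, distance 1.05) and *Nr4a1* (1516 and 589, distance 1.16). Those nearest to *Zfp36l1* were *Ucp2* (744 and 446, distance 0.53), *Gadd45b* (distance 0.59) and *Nr4a1* (distance 0.69). The comparison is over 2 group means only. *Gadd45b*, a stress-induced growth arrest gene, and *Nr4a1*, an orphan nuclear receptor gene, are early response genes like *Zfp36*. The log2 ratio of *Zfp36* lay between those of *Gadd45b* (-0.77) and *Nr4a1* (-1.36).

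**Figure D2:**
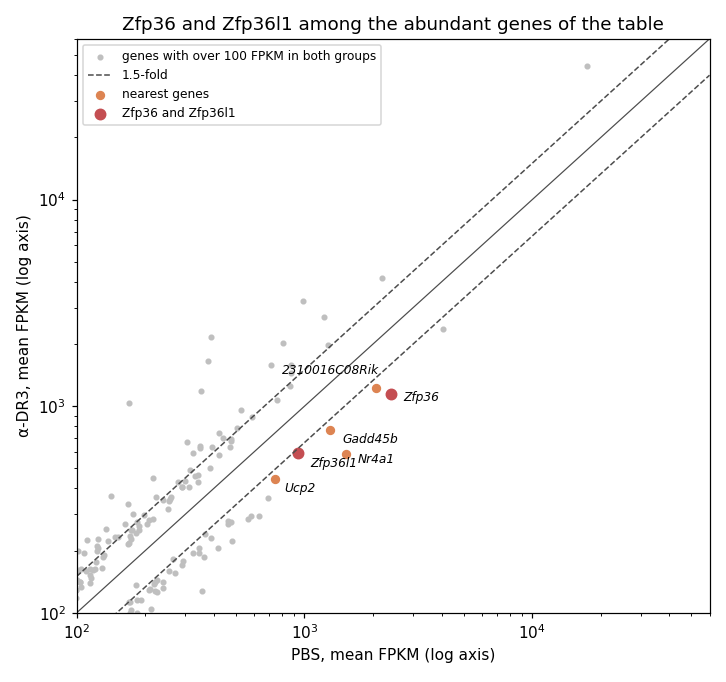
Mean FPKM in α-DR3 against PBS (both axes log, from 100 FPKM up) for the 136 genes of the table above 100 FPKM in both groups, with the line of equal levels and dashed lines at 1.5-fold. *Zfp36* and *Zfp36l1* lie past the lower dashed line, beside *Gadd45b*, *Nr4a1*, *Ucp2* and 2310016C08Rik. The band near the line of equal levels is sparse because the table holds only genes selected as changed.

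Possible targets of these factors were looked at next, by a list of 31 cytokine and chemokine mRNAs known to carry AU-rich elements. Whether ZFP36 proteins bind these mRNAs in ILC3s was not tested. Of the 31, 15 were in the table and the other 16, *Csf2* among them, were not analysed here. Of the 15, 13 had a higher mean and 2 a lower mean in α-DR3, while 54.6% of all genes of the table were higher. The median log2 ratio of the 15 was 1.14, against 0.39 over all genes of the table. At least 1.5-fold, 10 were higher (37.1% of all genes of the table) and 2 lower (38.4%). For 5 of them, *Il23a*, *Il4*, *Il5*, *Il6* and *Il1a*, the PBS mean was under 1 FPKM. A gene with so low a PBS mean could be in the table only if it was higher in α-DR3, as all 207 such genes were. Among the 10 with a mean over 1 FPKM in both groups, 8 were higher and 2 lower. Of all 1889 genes so chosen, 983 were higher and 906 lower. The median log2 ratio of the 10 was 0.62, against 0.34 over the 1889 genes. At least 1.5-fold, 5 of the 10 were higher and 2 lower, against 31.9% and 39.9% of the 1889 genes.

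*Tnf* and *Il2* were lower together with *Zfp36* and *Zfp36l1*. *Tnf*, which encodes the inflammatory cytokine whose mRNA is the best known target of tristetraprolin, had means of 184 FPKM in PBS and 116 FPKM in α-DR3, a log2 ratio of -0.67. *Il2*, the gene of a lymphocyte growth factor, had 76.8 and 29.4 FPKM, a log2 ratio of -1.39. The ratio of *Tnf* was close to that of *Zfp36l1* (-0.66), and that of *Il2* was below that of *Zfp36* (-1.07).

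The higher cytokine mRNAs with a PBS mean over 5 FPKM were led in level and in ratio by *Il22*, the signature cytokine of ILC3s, with 17424 FPKM in PBS and 44537 FPKM in α-DR3 (log2 ratio 1.35). *Vegfa*, a vascular growth factor gene, had 7.14 and 15.7 FPKM (1.14). *Il17f*, another cytokine gene of type 3 lymphocytes, had 47.5 and 82.8 FPKM (0.80), and *Lif*, of the interleukin 6 family, had 17.3 and 28.3 FPKM (0.71). These 4 mRNAs were past 1.5-fold, and the 3 chemokine mRNAs below were not.

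*Ccl3*, which encodes an attractant of monocytes and lymphocytes, had 110 FPKM in PBS and 159 FPKM in α-DR3 (log2 ratio 0.53). *Cxcl2*, which encodes a neutrophil attractant, had 291 and 405 FPKM (0.47). *Cxcl10*, an interferon-induced chemokine gene, had 311 and 407 FPKM (0.39). The log2 ratios of *Cxcl2* and *Cxcl10* were within 0.1 of the median of all genes of the table.

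The largest ratios belonged to mRNAs at low levels in PBS. *Il1b*, the gene of a cytokine produced mainly by myeloid cells, had 1.64 FPKM in PBS and 26.9 FPKM in α-DR3 (log2 ratio 4.03), and *Il1a*, of the same family, had 0.205 and 2.59 FPKM (3.66). *Il6* had 0.320 and 3.31 FPKM (3.37), *Il5* 0.190 and 1.81 FPKM (3.26) and *Il4* 0.600 and 5.17 FPKM (3.11). *Il23a*, which encodes the p19 subunit of IL-23, had 0.740 and 1.86 FPKM (1.33). All of these but *Il1b* stayed at or below 5.17 FPKM in α-DR3.

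Markers of some other cells were also higher in α-DR3. Of 10 macrophage and monocyte markers, 6 were in the table and all 6 were higher, with summed levels of 9.14 FPKM in PBS and 56.3 FPKM in α-DR3, led by *Lyz2* (4.08 and 37.9 FPKM). Of 8 dendritic cell markers 5 were in the table, all higher (77.0 and 173 FPKM summed). *Zbtb46* (42.3 and 71.4 FPKM) and *Batf3* (31.9 and 56.4 FPKM) made up most of that sum, and the largest ratio was that of *Ccl17* (2.22 and 37.1 FPKM). Of 6 fibroblast markers 5 were in the table, all higher (6.58 and 16.6 FPKM summed). Of 6 ILC2 markers 3 were in the table, 2 higher and 1 lower (7.97 and 14.6 FPKM summed). The higher ones included *Il5* itself, and the lower one was *Il1rl1*, the gene of the IL-33 receptor (3.40 and 1.80 FPKM). Of 6 markers of NK cells and ILC1s 4 were in the table, 2 higher and 2 lower (308 and 350 FPKM summed). The PBS mean was under 1 FPKM for 4 of the 6 macrophage and monocyte markers, 2 of the 5 dendritic cell markers and 3 of the 5 fibroblast markers, and these could be in the table only if they were higher. Of all genes of the table, 54.6% were higher. No marker of T cells, B cells, neutrophils and eosinophils or epithelial cells was in the table. The part of these cells in the levels of *Il1a*, *Il1b*, *Il4*, *Il5*, *Il6* and *Il23a* was not tested. The label of the sorted cells was checked by ILC3 markers, of which 6 of 12 were in the table. *Il22* was the most abundant gene of the table in both groups, and *Thy1* had 163 FPKM in PBS and 268 FPKM in α-DR3. *Ncr1*, a marker of the NCR+ ILC3s, had 460 and 279 FPKM, and *Ccr6*, a marker of the other main subset, had 29.4 and 68.3 FPKM, and whether the lower means of *Zfp36* and *Zfp36l1* go with these subsets was not tested.

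The 3′ UTRs of the members and of the cytokine mRNAs were compared by the motifs shown above. *Zfp36* held 3 heptamers and 3 pentamers, or 3.88 pentamers per kilobase, and *Zfp36l1* held 3 heptamers and 9 pentamers, or 4.90 pentamers per kilobase. Over the 2127 genes of the table with an annotated 3′ UTR the density was 1.78 pentamers per kilobase, and 29.4% of the genes held at least 1 heptamer and 10.2% more than 1. Both members thus carried more than 1 copy of the motif that their own proteins bind.

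Of the 15 cytokine mRNAs, 13 held a heptamer in their 3′ UTR, with 6.75 pentamers per kilobase over all 15. The exceptions were *Cxcl10* and *Vegfa*. The annotated transcript used for *Vegfa* has a 3′ UTR of only 27 bases, and the longest one annotated, of 1865 bases, holds 3 heptamers and 9 pentamers. *Tnf*, with a lower mean in α-DR3, had 8 heptamers and 10.5 pentamers per kilobase, and *Il2*, also lower, had 3 heptamers and 12.0 pentamers per kilobase. *Il22*, with a higher mean, had 4 heptamers and 11.5 pentamers per kilobase, and *Cxcl2* had 7 heptamers and 15.0. AU-rich density was therefore high in mRNAs of both directions.

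**Figure D3:**
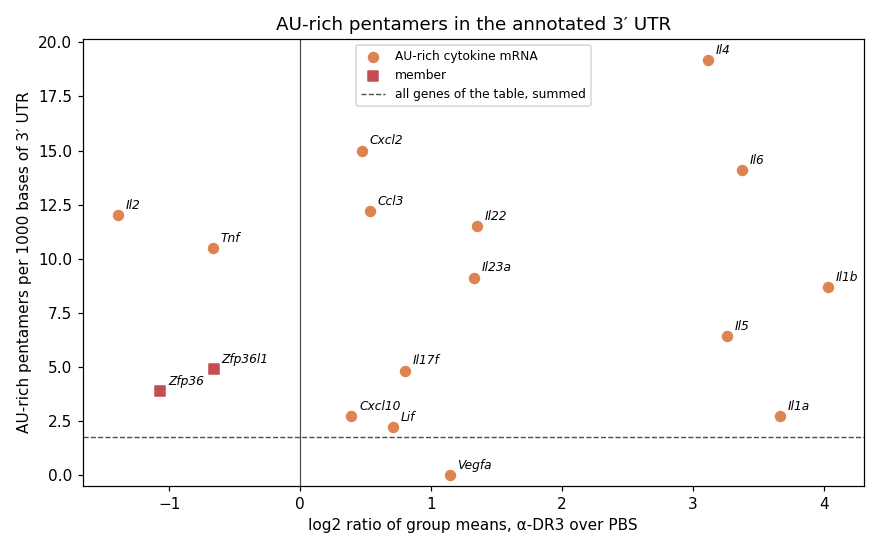
AU-rich pentamers per kilobase of annotated 3′ UTR against the log2 ratio of group means (α-DR3 over PBS), with squares for the members, circles for the 15 cytokine mRNAs and a dashed line at 1.78, the density over all genes of the table. *Il2* (12.0), *Tnf* (10.5) and *Il22* (11.5) have similar densities at log2 ratios of -1.39, -0.67 and 1.35, and the point of *Vegfa* rests on a 3′ UTR of 27 bases.

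Over the whole table, a heptamer was found in 30.6% of the 792 genes at least 1.5-fold higher, 28.7% of the 808 genes at least 1.5-fold lower and 28.7% of the 527 genes between the limits. The median 3′ UTR was 907 bases in the higher genes and 1074 bases in the lower genes. In genes with a 3′ UTR of 1000 to 2000 bases the heptamer was found in 40.6% of the higher and 31.8% of the lower genes, and in those of 2000 bases or more in 56.2% and 52.8%. With a 3′ UTR under 500 bases it was found in 18 of 257 higher and 17 of 201 lower genes, and with 500 to 1000 bases in 26.4% and 19.1%. These shares describe the annotation of genes selected as changed, and no test was made of them.

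Of other mRNAs on a list of 30 AU-rich transcripts outside the cytokines, 6 were in the table. *Nos2*, the inducible nitric oxide synthase gene, had 14.8 FPKM in PBS and 36.7 FPKM in α-DR3, *Ier3*, an early response gene, had 12.1 and 27.8 FPKM, and *Plaur*, the urokinase receptor gene, had 4.28 and 7.67 FPKM. *Ccnd1*, the cyclin D1 gene, had 0.580 and 15.3 FPKM, the highest log2 ratio of the list (4.72). *Birc3*, which encodes the apoptosis inhibitor cIAP2, was lower (255 and 160 FPKM), as was *Plau*, the urokinase gene (2.63 and 1.32 FPKM).

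The partners of ZFP36 proteins in decay were represented by few genes. Of 25 genes of deadenylation, 4 were in the table, and 3 of them were more than 1.5-fold lower, as were 38.4% of all genes of the table. These 3 encode anti-proliferative adaptors of the BTG and TOB family, which bind the deadenylase. *Btg2* had 695 FPKM in PBS and 358 FPKM in α-DR3 (log2 ratio -0.96), between the ratios of *Zfp36* and *Zfp36l1*. *Tob2* had 208 and 129 FPKM (-0.69) and *Tob1* had 55.0 and 36.4 FPKM (-0.60). *Pabpc4*, a poly(A)-binding protein gene, was higher (4.58 and 7.79 FPKM). No gene of the catalytic or scaffold subunits of the deadenylase was in the table.

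Of 22 genes of decapping and 5′ decay, 0 were in the table, and of 20 genes of the exosome and its cofactors only *Ttc37* was (4.92 FPKM in PBS and 3.05 FPKM in α-DR3). Of 33 genes of other RNA-binding proteins that act on mRNA stability, 4 were in the table, all with a higher mean in α-DR3, as 54.6% of all genes of the table had. For 1 of them, *Zc3h12c*, the PBS mean was under 1 FPKM, and 2 of the 4 were past 1.5-fold (37.1% of all genes of the table). *Elavl1*, whose product HuR stabilizes AU-rich mRNAs, had 31.4 and 40.6 FPKM (log2 ratio 0.37), and *Ybx1* had 68.8 and 85.7 FPKM (0.32). Both ratios were within 0.1 of the median of all genes of the table (0.39). *Zc3h12c* (0.825 and 2.77 FPKM) and *Zc3h12d* (1.98 and 4.33 FPKM), which encode CCCH zinc finger proteins of the Regnase family, were at low levels in both groups.

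**Figure D4:**
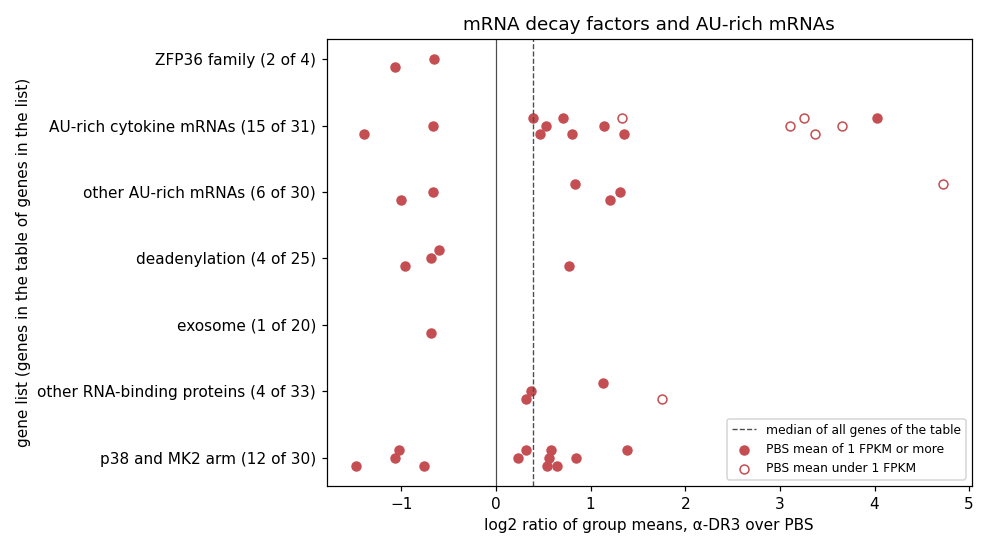
Log2 ratio of group means (α-DR3 over PBS) for each gene of the table on 7 lists, with the number in the table and in the list beside each name; open circles mark a PBS mean under 1 FPKM and the dashed line the median of all genes of the table (0.39). *Zfp36* (-1.07), *Zfp36l1* (-0.66) and the 3 BTG and TOB genes (-0.96 to -0.60) lie on the left, and 13 of 15 AU-rich cytokine mRNAs on the right of 0. Of all genes of the table, 54.6% were higher.

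The kinase arm that controls tristetraprolin was in the table with 12 of 30 genes, of which 8 were higher and 4 lower, while 54.6% of all genes of the table were higher. At the 1.5-fold limit 3 of the 12 were higher (37.1% of all genes of the table) and 4 lower (38.4%). *Mapk14*, which encodes p38α, had 9.70 FPKM in PBS and 14.4 FPKM in α-DR3, and *Map2k3*, which encodes a kinase upstream of it, had 57.2 and 84.4 FPKM (log2 ratio 0.56). *Mapkapk2*, which encodes MK2, the kinase that phosphorylates tristetraprolin, had 33.0 and 47.8 FPKM (log2 ratio 0.54), and the related *Mapkapk3* had 81.1 and 146 FPKM (0.85). *Hspb1*, whose product is a substrate of MK2, had 12.4 and 32.4 FPKM (1.38). *Dusp16*, a MAP kinase phosphatase gene, had 10.3 and 16.0 FPKM (0.64). The 4 lower genes were *Dusp2* (40.2 and 14.4 FPKM) and *Dusp4* (183 and 90.1 FPKM), which encode other MAP kinase phosphatases, *Map2k6* (5.68 and 2.71 FPKM), which encodes another upstream kinase of p38, and *Tab1* (6.24 and 3.69 FPKM), an adaptor gene. The median log2 ratio of the 12 was 0.43, against 0.39 for all genes of the table. These are mRNA levels and do not measure phosphorylation.

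The promoters of both members, the 300 bases around the start of each gene in RefSeq (GRCm38.p6), were searched on both strands for a few short motifs. The letters TATAAA occurred 1 time in the promoter of *Zfp36l1* and 0 times in that of *Zfp36*, and in 13.6% of all 32851 promoters. GGGCGG occurred 1 time in *Zfp36* and 0 times in *Zfp36l1*, and in 35.7% of all promoters. TGACGTCA and TGACTCA occurred in neither window, and in 1.79% and 5.20% of all promoters.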

How the data were processed

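Each group had 2 libraries (PBS and α-DR3), each from pooled sorted ILC3s. Per the methods and the submitters' processing notes, reads were mapped to GRCm38.p5 with STAR 2.5, quantified with RSEM 1.2 on GENCODE M16 and compared with edgeR 3.18.1 by the authors. The FPKM columns were deposited as 1 mean per group, averaged by the authors, and no scaling between the groups is stated. The control column is named as wild type and was read as PBS, the only other group of the labels. Most gene identifiers carry another version than in GENCODE M21, so the annotation behind the FPKM values and lengths may be older than the one stated. A column of gene lengths was deposited too. The table's columns of fold change, likelihood ratio, p-value and FDR hold the authors' own comparison and were not used, nor was the mean log expression. No library has a column, so the depth is unknown, and no test, SD or paired fit was made from these means.

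From the means, ratios without a pseudocount, a 1.5-fold limit, ranks and distances were computed with Python 3.11.15, pandas 2.3.3 and numpy 2.4.6, and plotted with matplotlib 3.10.9. GENCODE M21, on the same build, held 2149 of the 2179 identifiers, 187 with the same version, and gave coordinates, symbols and 3′ UTRs. For each gene the basic protein-coding transcript with the best APPRIS rank, then the longest, was used. Motif counting was tested on simulated sequences. The genes named are the members, all genes of the AU-rich cytokine list, up to 6 of each other list by size of ratio (with *Mapk14*, *Mapkapk2*, *Map2k3* and *Dusp16* added after their values were seen), and the 3 nearest to each member. Of the marker lists only some of these are named. The members and lists were chosen with earlier results of these data known. The alternatives are given in the closing section. Some items are not reported here.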

Additional observations from a re-analysis of the deposited data

How the results depend on the processing

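No paired analysis was possible because the values used here are group means. No library was left out in turn, since the study's values of single libraries were not used, and 1 library could decide any difference given here without it being seen. A pseudocount of 1 FPKM left the log2 ratios of *Zfp36* (-1.07) and *Zfp36l1* (-0.66) as they were. It lowered those of cytokine mRNAs with a PBS mean under 1 FPKM. *Il1a* went from 3.66 to 1.57, *Il6* from 3.37 to 1.71, *Il5* from 3.26 to 1.24, *Il4* from 3.11 to 1.95 and *Il23a* from 1.33 to 0.72. After division of the group means by the median ratio of all genes of the table (1.31, a log2 shift of 0.39), the ratios of *Zfp36* and *Zfp36l1* were -1.45 and -1.05. That median comes from genes selected as changed, so it need not be the right scale. Of the AU-rich cytokine mRNAs, 10 were at least 1.5-fold higher and 2 lower. With a mean over 5 FPKM in either group, *Il23a*, *Il5*, *Il6* and *Il1a* no longer entered. Of those that did, 6 were higher (31.6% of all genes under that filter) and 2 lower (38.2%). With a mean over 1 FPKM in both groups, an alternative chosen after seeing the data, 5 of 10 were higher (31.9% of all genes under that filter) and 2 lower (39.9%). At a limit of 2-fold, 8 were higher (20.5% of all genes) and 1, *Il2*, lower (11.8%). After division by the median ratio 8 were higher (21.1%) and 2 lower (45.3%). The 5 genes with a PBS mean under 1 FPKM could be in the table only if they were higher.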
